A study of Mus musculus with 10 samples.

Results

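The acute-phase plasma protein genes described here are Saa1, Saa2, Saa3, Saa4, Orm1, Orm2, Crp, Hp, Hpx, and Lcn2. They were taken by gene symbol, and all 10 were found among the 21939 genes of the deposited table. Acute-phase proteins are secreted into the blood, mostly by hepatocytes, and their concentration changes during infection or tissue injury. Interleukin 6 acting through STAT3, interleukin 1 and tumor necrosis factor acting through NF-κB, and transcription factors of the C/EBP family are known to drive their genes in the liver. p65, encoded by Rela, is an NF-κB subunit with a transactivation domain, and Nrf2, encoded by Nfe2l2, is a transcription factor that activates cytoprotective genes.

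RNA of freshly isolated hepatocytes was sequenced from 10 male mice, with 1 library per mouse. The age recorded for them was 8 to 9 weeks, which may be that at the start of the experiment and not that at cell isolation. The mice were C57BL6/j animals without floxed alleles (control, 3 libraries), Nrf2 flox/flox animals (Nrf2 KO, 2 libraries), p65 flox/flox animals (p65 KO, 2 libraries), and Nrf2:p65 double floxed animals (DKO, 3 libraries), with the background of the floxed animals matching that of the controls. Every mouse, control mice included, received AAV8Cre, an adeno-associated virus with Cre recombinase under the hepatocyte-specific thyroxine-binding globulin promoter, 12 days before cell isolation. Recombination is therefore directed to hepatocytes, and other liver cells keep both genes.

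Libraries held between 33707165 and 49897382 counts. The deposited values were taken as estimated counts, although the table is named as normalized. Values below are normalized counts, which are estimated counts divided by the TMM-scaled size of the library relative to the mean size. A gene was called when edgeR's quasi-likelihood test gave a Benjamini-Hochberg adjusted p of at most 0.05 over the 13641 genes tested and the change was at least 1 on the log2 scale, up or down. The targeted genes were examined first. Total Nfe2l2 was higher in Nrf2 KO (log2 fold change 1.21, adjusted p = 0.00488, but 0.0816 without Nrf2 KO replicate 2) and in DKO (1.02, adjusted p = 0.00347) than in control, and total Rela in p65 KO differed from control by a log2 fold change of -0.07 (adjusted p = 0.765). The call of Nfe2l2 in DKO fell under the fold threshold without control replicate 2, control replicate 3, or DKO replicate 3, to 0.85 at the lowest. The table gives 1 total per gene, the deleted exons included with the rest, and these totals check nothing about the deletion. Genotypes are those of the labels. Of 10 hepatocyte markers, 0 were called in p65 KO and 1, Tat, in DKO, where 6.59% and 2.38% of all genes tested were called. Alb, the gene for serum albumin, had a log2 fold change of -0.02 in p65 KO (adjusted p = 0.956).

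The 4 Saa genes lie together on chromosome 7 of GRCm39. Saa3 (ENSMUSG00000040026) spans 46361422 to 46365576, Saa4 (ENSMUSG00000040017) 46377406 to 46382035, Saa1 (ENSMUSG00000074115) 46389916 to 46392547, and Saa2 (ENSMUSG00000057465) 46401214 to 46403737. Orm1 (ENSMUSG00000039196, 63261052 to 63272189) and Orm2 (ENSMUSG00000061540, 63280686 to 63284115) are neighbors on chromosome 4. Crp (ENSMUSG00000037942) lies on chromosome 1 from 172525614 to 172660598, Hp (ENSMUSG00000031722) on chromosome 8 from 110301759 to 110305804, Hpx (ENSMUSG00000030895) on chromosome 7 from 105240817 to 105249344, and Lcn2 (ENSMUSG00000026822) on chromosome 2 from 32274645 to 32278264.

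The 250 bases before the RefSeq start were available for 8 of the 10 genes and were searched on both strands for 3 motifs. The C/EBP core TTNNGCAA occurred in 7 of these 8 windows and in 9.56% of all 32851 windows of the same length. The STAT motif TTCNNNGAA occurred in 0 of the 8 windows and in 7.02% of all windows, and the κB consensus in 0 of the 8 and in 7.25% of all windows. Crp was the gene without a C/EBP match. Such a match is a run of letters and not a measured binding site, and a motif that is missing from these windows may lie outside them. The 30 bases around the match are shown for the 5 genes that differed most between genotypes in the results below, because these genes moved in opposite directions. They are written 5′ to 3′ on the strand of the gene, with the match in capitals, and come from the RefSeq table (build GRCm38.p6) with positions from an exact match of the window to GRCm39.
Saa3, chr7:46365181-46365210, minus strand: ggtaagtgggaTTATGCAAgatcaaacagg
Saa1, chr7:46392568-46392597, minus strand: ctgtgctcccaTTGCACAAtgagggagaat
Saa2, chr7:46401063-46401092, plus strand: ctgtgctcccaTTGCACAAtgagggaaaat
Orm2, chr4:63280555-63280584, plus strand: gagagaacattTTGCGCAAgacatttccca
Lcn2, chr2:32277949-32277978, minus strand: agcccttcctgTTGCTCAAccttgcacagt

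The match lay 99 to 92 bases before the start in Saa3, 182 to 175 in Saa1, 183 to 176 in Saa2, 120 to 113 in Orm2, and 216 to 209 in Lcn2. It reads in the direction of the gene in Saa3, against it in Saa1, Saa2, and Lcn2, and in both directions in Orm2. The complete windows of Saa1 and Saa2 aligned with 94.8% identity over 251 columns. GENCODE M39 also lists longer transcripts that start farther upstream. Exons of these covered 250 of the 250 bases in Saa3, 197 in Lcn2, 143 in Saa1, and 43 in Saa2, but 0 in Orm2.

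Abundance differed widely among the 10 genes. Per kilobase of the canonical transcript, the control mean was highest for Hpx, with 77570 ± 23854 normalized counts (SD, n = 3), and lowest for Lcn2, with 35.0. The order in control was Hpx, Hp, Orm1, Crp, Saa4, Saa1, Saa2, Orm2, Saa3, and Lcn2. The ranges of the libraries overlapped for the neighboring pairs Hpx and Hp, Saa1 and Saa2, Saa2 and Orm2, and Orm2 and Saa3, so that these pairs are not ordered beyond their spread. Nrf2 KO had the same order of means. In p65 KO and in DKO, Lcn2 and Saa3 exchanged places. Their means per kilobase were 222 for Lcn2 and 18.5 for Saa3 in p65 KO, and 311 and 24.6 in DKO, with no overlap between the genes in either genotype. Saa3 was thus the least abundant of the 10 genes in both genotypes with floxed p65 (p65-deficient below, 5 libraries), whereas it was more abundant than Lcn2 in control and Nrf2 KO (p65-intact, 5 libraries).

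**Figure D1:**
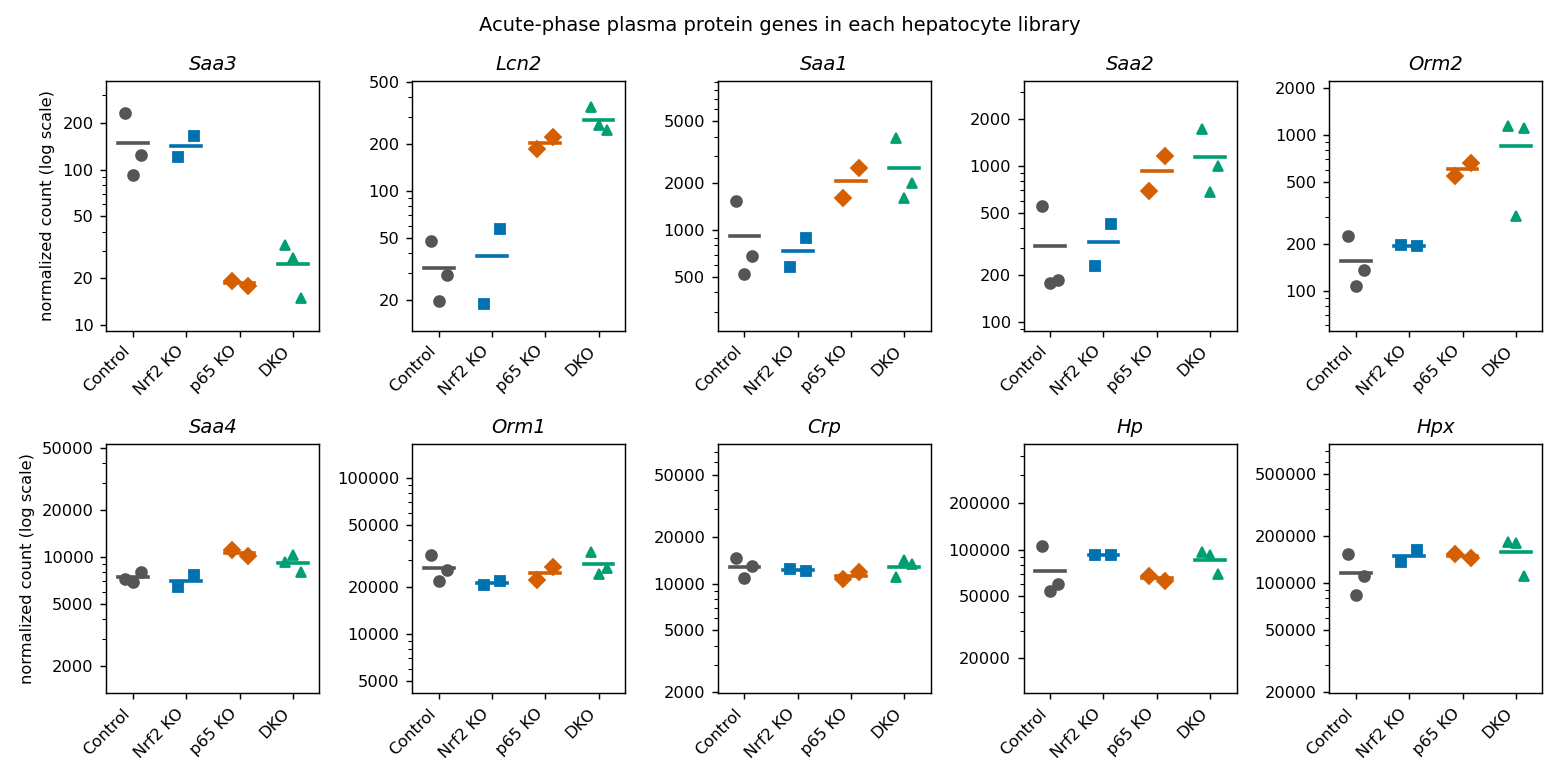
Normalized counts (log scale) of the 10 genes in each library, grouped by genotype, with 1 symbol per mouse and a horizontal line at the mean of the genotype. The Saa3 points of p65 KO and DKO lie between 14.9 and 32.6 and below all points of control and Nrf2 KO, those of Lcn2, Saa1, Saa2, and Orm2 lie above them, and those of Orm1, Crp, Hp, and Hpx overlap.

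Saa3 encodes an inflammation-inducible serum amyloid A that is also made outside the liver, for example by macrophages and adipocytes. Its normalized counts were 230, 92.4, and 124 in control replicates 1, 2, and 3 and 120 and 165 in Nrf2 KO. They were 19.3 and 18.0 in p65 KO and 32.6, 26.9, and 14.9 in DKO. All 5 p65-deficient libraries lay below all 5 p65-intact libraries, and the lowest p65-intact value exceeded the highest p65-deficient value. Over all genes tested, the libraries were separated in this direction for 4.05%. The log2 fold change against control was -2.99 in p65 KO (standard error, SE, 0.475, adjusted p = 0.00391), which is 7.93-fold lower, and -2.57 in DKO (SE 0.396, adjusted p = 0.00565), which is 5.94-fold lower. In bulk RNA, fewer cells that express a gene and less RNA per cell cannot be told apart.

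Lcn2 encodes lipocalin 2, which binds bacterial siderophores and is also stored in neutrophil granules. Normalized counts in control were 47.5, 19.7, and 29.0, and in Nrf2 KO 18.8 and 57.4. They reached 185 and 222 in p65 KO and 344, 266, and 245 in DKO. As for Saa3, there was no overlap between p65-intact and p65-deficient libraries, but the direction was the opposite. Over all genes tested, 4.83% were separated upward in this way. The log2 fold change of Lcn2 against control was 2.67 in p65 KO (SE 0.415, adjusted p = 0.00361) and 3.16 in DKO (SE 0.394, adjusted p = 0.00189), which is 6.38-fold and 8.93-fold higher.

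Saa1 and Saa2 encode the main circulating serum amyloid A proteins, which travel on high-density lipoprotein. Saa1 had 1533, 526, and 686 normalized counts in control, 584 and 892 in Nrf2 KO, 1620.4 and 2499.9 in p65 KO, and 3923, 1606, and 2014 in DKO. The lowest p65-deficient library exceeded the highest p65-intact library, control replicate 1, by little. Saa2 had 554, 179, and 188 normalized counts in control, 228 and 424 in Nrf2 KO, 697 and 1163 in p65 KO, and 1736, 686, and 1008 in DKO, again without overlap between p65-intact and p65-deficient libraries. Against control, the log2 fold change of Saa2 was 1.61 in p65 KO (95% confidence interval from 0.48 to 2.73, adjusted p = 0.0575) and 1.90 in DKO (adjusted p = 0.0437), of which only the second was called. Saa1 was called in neither, with 1.17 in p65 KO (95% confidence interval from 0.17 to 2.18, adjusted p = 0.105) and 1.46 in DKO (0.53 to 2.39, adjusted p = 0.071). When control replicate 1 was left out, both genes were called in p65 KO, with 1.76 for Saa1 (adjusted p = 0.0349) and 2.34 for Saa2 (adjusted p = 0.0189), and Saa1 was called in DKO as well (2.05, adjusted p = 0.0324). Saa2 was also called in p65 KO without DKO replicate 1 (1.60, adjusted p = 0.0493) or DKO replicate 2 (1.61, adjusted p = 0.0471). The call of Saa2 in DKO was fragile and was lost in 8 of the 10 omissions of 1 library. The adjusted p of Saa2 rose to 0.13 without control replicate 2, 0.122 without control replicate 3, 0.125 without DKO replicate 1, and 0.0659 without DKO replicate 3, and to between 0.05 and 0.0569 without either Nrf2 KO or either p65 KO library.

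Transcripts of Saa1 and Saa2 are similar, and 42.8% of the 31-base stretches of Saa1 also occur in Saa2, so reads could have been divided between them. At a length of 100 bases, that of the reads, 8.59% were shared. The sum of both genes had a log2 fold change of 1.29 in p65 KO (adjusted p = 0.0865) and 1.58 in DKO (adjusted p = 0.06) against control. Saa3 shared 0.871% of its 31-base stretches with Saa1 and 0 of its 100-base stretches with any other Saa gene.

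Orm1 and Orm2 encode orosomucoids, or α1-acid glycoproteins, which bind lipophilic compounds in plasma. Orm2 had 224, 108, and 136 normalized counts in control, 197 and 194 in Nrf2 KO, 547 and 660 in p65 KO, and 1141, 304, and 1110 in DKO. DKO replicate 2 was the lowest p65-deficient library and still lay above all p65-intact libraries. Orm2 was called in both genotypes, at 1.95 on the log2 scale in p65 KO (SE 0.461, adjusted p = 0.0199) and 2.45 in DKO (SE 0.434, adjusted p = 0.0115). The call in p65 KO was lost without control replicate 2 (1.75, adjusted p = 0.0615), control replicate 3 (1.86, adjusted p = 0.0578), p65 KO replicate 1 (2.08, adjusted p = 0.0818), or p65 KO replicate 2 (1.81, adjusted p = 0.0787). That in DKO was lost without control replicate 2 (2.25, adjusted p = 0.0505).

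Orm1 was far more abundant, with between 20683 and 33390.2 normalized counts over the 10 libraries, and all genotypes overlapped with control except Nrf2 KO, which lay just below it. Its log2 fold change was -0.11 in p65 KO (95% confidence interval from -0.52 to 0.30) and 0.07 in DKO (-0.29 to 0.44). Orm2 amounted to between 0.492% and 0.951% of Orm1 in p65-intact libraries and to between 1.26% and 4.21% in p65-deficient libraries. Of the 31-base stretches of Orm2, 28.5% also occur in Orm1, and at 100 bases 7.99%. A small share of Orm1 reads assigned to Orm2 would be large beside the Orm2 count, and this was not tested. The sum of Orm1, Orm2, and Orm3 differed from control by a log2 fold change of -0.08 in p65 KO (adjusted p = 0.802) and 0.11 in DKO (adjusted p = 0.732).

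Saa4 encodes a constitutive serum amyloid A of high-density lipoprotein. Both p65 KO libraries (11194.5 and 10148) lay above the control libraries (7239.8, 6982, and 8071), whereas DKO (9288, 10338, and 7990.3) overlapped with control and Nrf2 KO had 6401 and 7731. The log2 fold change in p65 KO was 0.52 (SE 0.138, adjusted p = 0.0306), which passed the p threshold, as 14.9% of all genes did, but not that on the fold. It missed the p threshold without control replicate 1 (adjusted p = 0.088), control replicate 2 (adjusted p = 0.0816), p65 KO replicate 1 (adjusted p = 0.187), or p65 KO replicate 2 (adjusted p = 0.0621). In DKO it was 0.31 (95% confidence interval from 0.03 to 0.58, adjusted p = 0.174).

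Crp encodes C-reactive protein, a pentraxin that is a minor acute-phase protein in mice, and was among the steadiest of the 10 genes, between 10646 and 14611 normalized counts in all libraries. Hp encodes haptoglobin, which binds free hemoglobin, and ranged from 53962 to 105629 in control alone, a range that held every library of the other genotypes. Hpx encodes hemopexin, which binds free heme, and ranged from 83851 to 154833 in control and from 111428 to 183330 in DKO. None of these 3 genes was called in any comparison of genotypes. Against control, the 95% confidence intervals of the log2 fold change reached from -0.53 to 0.15 for Crp, from -0.73 to 0.40 for Hp, and from -0.21 to 0.94 for Hpx in p65 KO. In DKO they reached from -0.30 to 0.30, from -0.28 to 0.74, and from -0.08 to 0.96.

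**Figure D2:**
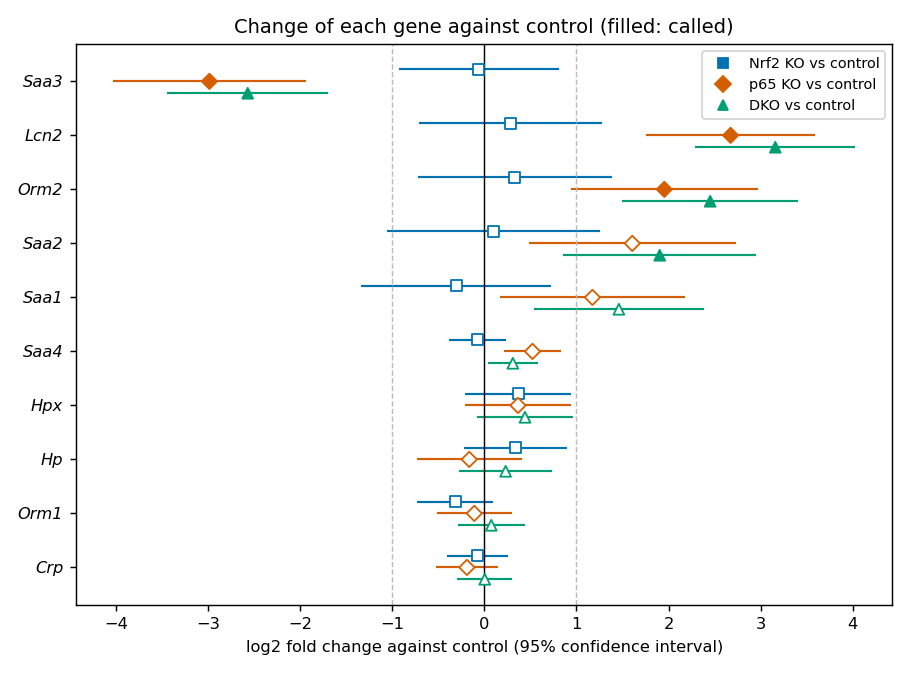
Log2 fold change of each gene against control in Nrf2 KO, p65 KO, and DKO with 95% confidence intervals from edgeR; filled symbols mark called genes and dashed lines mark -1 and 1 on the log2 scale. Saa3 lies at -2.99 in p65 KO and -2.57 in DKO and Lcn2 at 2.67 and 3.16, whereas all intervals of Nrf2 KO include 0.

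In total, 3 of the 10 genes were called in p65 KO against control, Saa3 lower and Lcn2 and Orm2 higher, where 6.59% of all genes tested were called. The median absolute log2 fold change of the 10 genes was 0.85, against 0.34 for all genes tested. In DKO against control, 4 genes were called, Saa3 lower and Lcn2, Orm2, and Saa2 higher, where 2.38% of all genes were called, and the medians were 0.95 and 0.25. Both comparisons share the control libraries. The contrast of DKO with Nrf2 KO leaves out the control mean, but it reuses the DKO libraries. The spread in its test also comes from all 10 libraries, control included. In this contrast 2 of the 10 genes were called, Saa3 lower (log2 fold change -2.51, adjusted p = 0.0267) and Lcn2 higher (2.88, adjusted p = 0.0184), where 0.433% of all genes were called. With only these 2 genotypes in the model, neither gene was called. These 2 calls rested on few libraries. Saa3 lost its call without Nrf2 KO replicate 1 (-2.72, adjusted p = 0.0946), Nrf2 KO replicate 2 (-2.26, adjusted p = 0.196), DKO replicate 2 (-2.57, adjusted p = 0.0533), or DKO replicate 3 (-2.25, adjusted p = 0.0643), and Lcn2 without Nrf2 KO replicate 1 (2.31, adjusted p = 0.108). Orm2 joined the calls without DKO replicate 2 (2.53, adjusted p = 0.00332).

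The p65 effect averaged over both Nrf2 states compared p65 KO and DKO with control and Nrf2 KO. It was called for 5 of the 10 genes, where 5.93% of all genes were called. Lcn2 (log2 fold change 2.78, adjusted p = 0.000851), Orm2 (2.04, adjusted p = 0.00442), Saa2 (1.71, adjusted p = 0.0142), and Saa1 (1.47, adjusted p = 0.0161) were higher and Saa3 (-2.75, adjusted p = 0.00102) was lower. Saa4 passed the p threshold alone, as 15.6% of all genes did with or without that on the fold, at 0.45 (adjusted p = 0.014), and missed it without Nrf2 KO replicate 1 (adjusted p = 0.0643) or p65 KO replicate 1 (adjusted p = 0.0559). Without Nrf2 KO replicate 1 the calls of Saa1 (1.33, adjusted p = 0.0688) and Saa2 (1.52, adjusted p = 0.0621) were lost, and that of Saa1 also without p65 KO replicate 2 (1.30, adjusted p = 0.0507).

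The loss of Nrf2 alone had no called effect on these genes. In Nrf2 KO against control, 0 of the 10 genes were called by edgeR or by DESeq2, and 0 had an unadjusted p under 0.05, where 0.55% of all genes were called. The 95% confidence interval of the log2 fold change was from -0.93 to 0.81 for Saa3, from -0.71 to 1.27 for Lcn2, and from -1.34 to 0.73 for Saa1, and these intervals include both directions. Between DKO and p65 KO, again 0 genes were called by either tool and 0 had an unadjusted p under 0.05, with 1.78% of all genes called. The log2 fold change of Saa3 was 0.42 (95% confidence interval from -0.64 to 1.47) and that of Lcn2 0.49 (-0.37 to 1.34). The interaction, which is the p65 effect without Nrf2 minus that with Nrf2, was called for 0 of the 10 genes by either tool, with 0 at an unadjusted p under 0.05 and 0.455% of all genes called. It was 0.48 for Saa3 (95% confidence interval from -0.89 to 1.84) and 0.20 for Lcn2 (-1.11 to 1.52).

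Saa3 was then set against the other members within each library, which removes the scaling of the libraries. The log2 ratio of Saa3 to the sum of Saa1 and Saa2 was -3.18, -2.93, and -2.82 in control, -2.76 and -3.00 in Nrf2 KO, -6.91 and -7.67 in p65 KO, and -7.44, -6.41, and -7.67 in DKO. Its spread within p65-intact libraries was small, from -3.18 to -2.76, although Saa1 itself varied from 526 to 1533 normalized counts there. In control the mean was -2.98 ± 0.188 (SD, n = 3), whereas in p65 KO it was -7.29 ± 0.541 (SD, n = 2). Averaged over both Nrf2 states, the log2 ratio in p65-deficient libraries minus that in p65-intact libraries was -4.30, or 19.7-fold lower (exact permutation test within Nrf2 states, 2-sided p = 0.01, the smallest that the 100 assignments allow). The difference was -4.31 between p65 KO and control and -4.29 between DKO and Nrf2 KO.

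**Figure D3:**
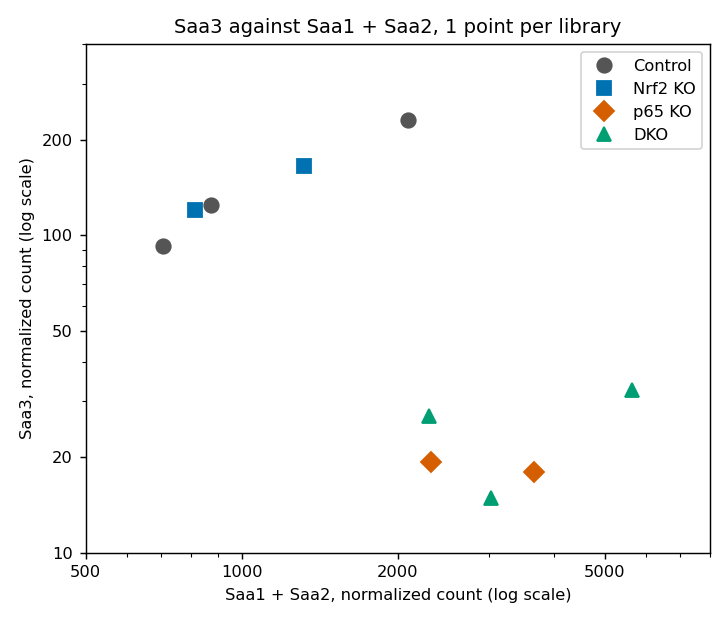
Normalized counts of Saa3 (vertical, log scale) against the sum of Saa1 and Saa2 (horizontal, log scale), with 1 point per library and symbols by genotype. The control and Nrf2 KO points lie along a common rising line with a log2 ratio between -3.18 and -2.76, and the p65 KO and DKO points lie below and to the right, between -7.67 and -6.41.

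The ratio of Saa3 to each of the other 9 genes was lower in p65-deficient libraries as well. The log2 difference was -2.62 for Hp, -2.68 for Crp, -2.87 for Orm1, -2.96 for Hpx, -3.19 for Saa4, -4.23 for Saa1, -4.50 for Saa2, -4.69 for Orm2, and -5.66 for Lcn2. Each of these had an exact permutation p of 0.01, the smallest possible. Benjamini-Hochberg adjustment over the 9 ratios leaves 9 equal p-values unchanged and adds no information. Saa3 was separated between p65-intact and p65-deficient libraries without any ratio, and so were Lcn2, Saa1, Saa2, and Orm2 in the other direction. Ratios to genes that changed little therefore mostly repeat the change of Saa3 itself. All 9 ratios share Saa3 and are not independent of each other. No other gene of the set was called lower in any comparison.

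In 3 of the 4 genotypes, 1 library was highest for most of the set. Control replicate 1 was the highest control library for 9 of the 10 genes, all but Saa4, and for 32.3% of all genes tested. DKO replicate 1 was the highest DKO library for 8, and for 34.9% of all genes. Nrf2 KO replicate 2 was the higher library for 8 genes, and for 48.4% of all genes. In p65 KO neither library led, with replicate 2 higher for 6 genes and replicate 1 for 4. Within control, the values of replicate 1 and replicate 2 were 1533 and 526 for Saa1, 230 and 92.4 for Saa3, and 47.5 and 19.7 for Lcn2. Saa3 thus varied together with Saa1 and Lcn2 among control animals, but opposite to them between p65-intact and p65-deficient animals.

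Genes with a similar pattern were ranked by Pearson's r of log2(normalized count + 1) over the 10 libraries and 10184 genes, as a description, since the libraries of 1 genotype are alike. Closest to Saa3 were Map3k10 (r = 0.978), Rack1 (r = 0.97), Rpsa (r = 0.969), Rpl11 (r = 0.958), and Ilk (r = 0.956), whose log2 fold changes in p65 KO lay between -0.41 for Map3k10 and -0.26 for Ilk and were far smaller than that of Saa3. Saa2 was closest to Saa1 (r = 0.983), followed by Tbkbp1, Rrp9, Slc46a3, and Dph2. Among the closest to Lcn2 were Slc46a3 (r = 0.973), Cyb561, Nnmt, and Saa2 (r = 0.933). Nnmt, which encodes nicotinamide N-methyltransferase, had log2 fold changes of 1.55 in p65 KO (adjusted p = 0.00846) and 2.41 in DKO (adjusted p = 0.00138).

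Other positive acute-phase genes, whose products rise in inflammation, were examined as a list of 25, all tested. In p65 KO 4 were called higher, and 1 lower, where 6.59% of all genes tested were called in either direction. The metallothionein genes Mt2 and Mt1, whose products bind zinc and copper, had log2 fold changes of 3.03 (adjusted p = 0.00345) and 2.23 (adjusted p = 0.006), and Serpina3m, a serine protease inhibitor gene, 1.50 (adjusted p = 0.00313). Steap4, which encodes a metalloreductase, had 1.26 (adjusted p = 0.00416), which fell under the fold threshold without p65 KO replicate 2 (0.89). Lbp, which encodes lipopolysaccharide-binding protein, was lower, with a control level of 2899 ± 559 normalized counts (SD, n = 3) and a p65 KO level of 1298 ± 139 (SD, n = 2; log2 fold change -1.16, adjusted p = 0.00663), and its call was lost without control replicate 1, just under the fold threshold, and with equal library totals (-0.98). In DKO, 2 of the 25 were called higher, Mt2 (2.11, adjusted p = 0.022) and Mt1 (1.41, adjusted p = 0.0482), and 0 lower, where 2.38% of all genes were called. These calls rested on few libraries, since Mt2 was lost in 3 and Mt1 in 8 of the 10 omissions of 1 library, with adjusted p of up to 0.0764 and 0.137, both without control replicate 2. The median log2 fold change of the list was 0.73 in p65 KO and 0.34 in DKO, beside medians of all genes tested of 0.0009 and 0.025. In Nrf2 KO 0 of the 25 were called, where 0.55% of all genes were called. Of 12 negative acute-phase genes, whose products fall in inflammation, 1 was called in p65 KO, Serpina6, which encodes corticosteroid-binding globulin (1.39, adjusted p = 0.00514), and 0 in DKO or Nrf2 KO. A call of 1 in 12 is near the share of all genes called in p65 KO.

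The counts in the next lists can be read beside the shares of all genes tested that met both thresholds against control. These shares were 6.59% for p65 KO, 2.38% for DKO, and 0.55% for Nrf2 KO. Among genes for the cytokines, receptors, and kinases upstream, 20 of 24 were tested, and 4 were called in p65 KO, all higher. The one with at least 50 normalized counts on average was Il6ra, the gene for the interleukin 6 receptor α chain, at 1379 ± 762 in control (SD, n = 3) and 3691 ± 738 in p65 KO (SD, n = 2; log2 fold change 1.42, adjusted p = 0.0254). The call of Il6ra was lost without control replicate 1 (adjusted p = 0.061), control replicate 2 (adjusted p = 0.0755), or p65 KO replicate 1 (adjusted p = 0.171). In DKO and in Nrf2 KO 0 of the 20 were called. Of 22 transcription factors and feedback regulators, 2 were called in p65 KO, which is near the share of all genes. Socs3, which encodes an inhibitor of interleukin 6 signaling, had a log2 fold change of 3.16 (adjusted p = 0.0241), with 2385 ± 2232 normalized counts (SD, n = 2) in p65 KO and thus a spread nearly as large as the mean. Without p65 KO replicate 1 the fold change of Socs3 was 1.60 (adjusted p = 0.305), and its call was also lost without any of control replicates 1 to 3 (adjusted p between 0.0535 and 0.0817). In DKO and in Nrf2 KO 0 of the 22 were called, and Socs3 was lower in DKO than in p65 KO (-3.56, adjusted p = 0.0364; lost in 7 of the 10 omissions of 1 library, with -1.99 and adjusted p = 0.285 without p65 KO replicate 1). Of 13 genes for receptors and partners of the proteins, 5 were called in p65 KO, all higher, 3 in DKO, and 0 in Nrf2 KO. Cd163, the macrophage receptor for haptoglobin and hemoglobin complexes, had a log2 fold change of 3.42 in p65 KO (adjusted p = 0.00416) and 2.18 in DKO (adjusted p = 0.0357), of which the second was lost in 7 of the 10 omissions of 1 library (adjusted p up to 0.128, without control replicate 1). Fcgr2b, an Fcγ receptor gene, and Hmox1, the gene for the heme-degrading enzyme heme oxygenase 1, had 1.85 (adjusted p = 0.00557) and 1.44 (adjusted p = 0.00198) in p65 KO. The call of Fcgr2b was lost without p65 KO replicate 1 (1.49, adjusted p = 0.0628).

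Markers of several other liver cell types were called higher in p65 KO, and fewer of them in DKO. Beside the counts below, 6.59% of all genes tested were called in p65 KO and 2.38% in DKO. The summed level of 12 markers of Kupffer cells and macrophages was between 379 and 957 normalized counts in control, 264 and 815 in Nrf2 KO, 4470 and 6083 in p65 KO, and between 1661 and 2924 in DKO, and 12 of the 12 were called higher in p65 KO and 5 in DKO. The sum was thus higher in p65 KO than in DKO. Lcn2 had 185 and 222 in p65 KO and 245 to 344 in DKO. Of 12 neutrophil markers, 6 had at most 3 counts in every library, and Ly6g had 0 in all of them. The sum of the neutrophil markers was between 2.80 and 7.87 in control, 8.08 and 9.89 in Nrf2 KO, 12.3 and 55.9 in p65 KO, and between 11.4 and 50.5 in DKO. Markers of sinusoidal endothelial cells (8 of 8) and stellate cells (6 of 8) were also called higher in p65 KO, and 1 of each in DKO. Of the 8 markers of monocytes and dendritic cells, of which 6 were tested, 3 were called in p65 KO and 1 in DKO. Of the 12 neutrophil markers, 5 passed the count filter, and of these Csf3r, the receptor gene for granulocyte colony-stimulating factor, was called in p65 KO (log2 fold change 3.38, adjusted p = 0.0341), with 0 called in DKO. For T and NK cells (4 of 8 markers tested), B cells (2 of 4), cholangiocytes (3 of 6), and erythroid cells (5 of 5), 0 markers were called in either. The part of these cells in the higher level of Lcn2, Saa1, Saa2, Orm2, Cd163, or Il6ra was not tested. Saa3 was lower where the macrophage markers were higher, and the part of other cells in its level was not tested either.

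**Figure D4:**
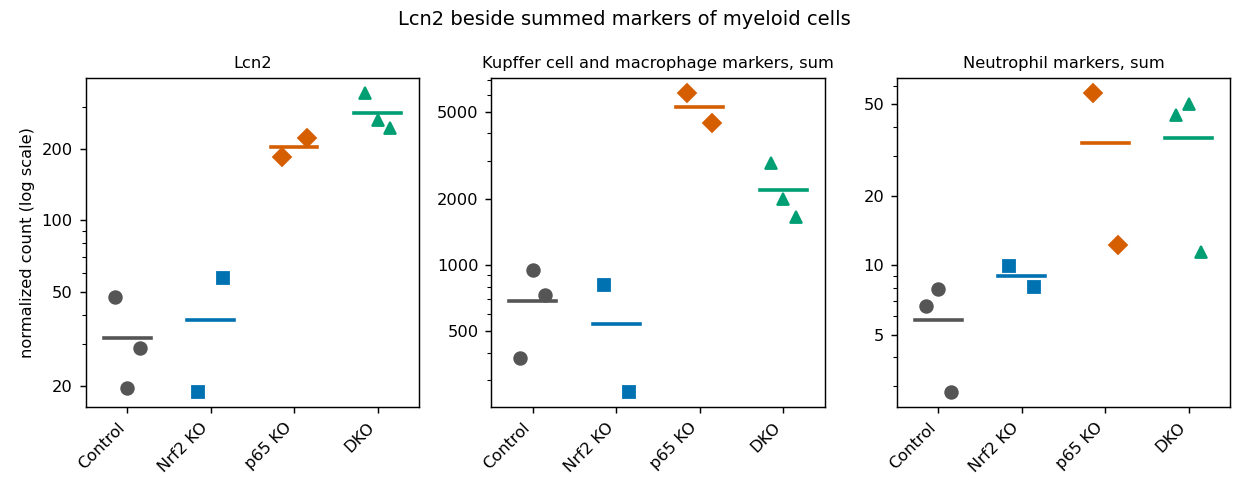
Normalized counts (log scale) of Lcn2, of the sum of 12 Kupffer cell and macrophage markers, and of the sum of 12 neutrophil markers, with 1 symbol per library and a line at the mean of each genotype; the 3 panels have separate axes. The macrophage sum is highest in p65 KO (4470 and 6083) and Lcn2 in DKO (245 to 344).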

How the data were processed

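The authors prepared poly-A selected, stranded libraries, sequenced single-end reads, and quantified them with Salmon 1.10.3 on GRCm39 with GENCODE M33 before testing with DESeq2 1.42.1. Which step made the table they deposited is not given in the sources used here. The deposited table, named as normalized, holds 1 whole number per gene and mouse. Column totals differed, and so did size factors by the median of ratios (0.879 to 1.26), so the deposited values were taken to be estimated counts (expected counts) of the authors' quantification without normalization, which the sources do not state. All 10 columns matched a sample by name.

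A total of 10 counts over all libraries was required of a gene, which left 13641. These entered the quasi-likelihood test of edgeR 4.0.16 (R 4.3.3, TMM normalization), with 1 model for all 4 genotypes, and p-values were adjusted over all genes tested in each of 7 comparisons. Confidence intervals of 95% use the standard errors of this fit. Ratios of Saa3 were tested by exact permutation within Nrf2 states. The edgeR procedure was also run on counts simulated from its own fitted model, for the comparisons with control only. That run did not cover the other comparisons or the ratio tests. Each library is a separate mouse, so that p-values measure the spread between animals. Symbols and positions are from GENCODE M39, which held 21926 of the 21939 identifiers. The set of 10 genes and all lists were chosen with earlier results of these data known. All 10 genes were named. From each list, up to 4 genes called in p65 KO were named by the size of their fold change, if their mean normalized count reached 50, and other genes named were picked with their values known. Some genes that these rules select are not reported here. Alternatives were DESeq2 1.42.0, limma 3.58.1 on log2 values with pseudocounts of 1 and 10, other scalings and filters, summed near-identical genes, a replicate block, models of just the compared genotypes, and omission of each library in turn.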

Additional observations from a re-analysis of the deposited data

Results flagged for a closer look

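Of the 10 acute-phase genes, 0 were called for a p65 effect that differed between the Nrf2 states, where 0.455% of all genes tested were called. The absence of a call does not show equal effects, because the confidence intervals of this difference were wide. On the log2 scale they reached from -0.86 to 2.04 for Saa1 and from -0.89 to 1.84 for Saa3. Among the other genes named, 2 were called by the interaction of edgeR's quasi-likelihood test, the p65 effect without Nrf2 minus that with Nrf2. Serpina3m had an interaction of -1.92 on the log2 scale (adjusted p = 0.0316), with a log2 fold change of 1.50 in p65 KO against control and -0.42 in DKO against Nrf2 KO. Its means were 6570 ± 1024 normalized counts in control (SD, n = 3), 11180 ± 1619 in Nrf2 KO (SD, n = 2), 18556 ± 1668 in p65 KO (SD, n = 2), and 8343 ± 2410 in DKO (SD, n = 3). Serpina6 had an interaction of -1.89 (adjusted p = 0.0375), with 1.39 in p65 KO against control and -0.51 in DKO against Nrf2 KO. Its control mean was 3361 ± 749 normalized counts, against 6684 ± 1470 (Nrf2 KO), 8789 ± 1115 (p65 KO), and 4703 ± 1262 (DKO). Omission of 1 library ended both calls without control replicate 1, control replicate 2, either Nrf2 KO library, or either p65 KO library, and that of Serpina6 also without DKO replicate 1. The adjusted p rose to 0.16 for Serpina3m and 0.199 for Serpina6, both without Nrf2 KO replicate 2.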

How the results depend on the processing

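Over all alternatives, 1406 of 1450 values of the 10 genes stayed on their side of the threshold, 30 lost and 13 gained a call, and 1 called value changed sign. Most of the 1450 values belong to genes and comparisons without a call in the main setting, which had no call to lose. Saa2 in DKO against control kept its call in 10 alternatives and lost it in 11. Of the 1406, 64 changed sign without being called in either setting. For 13 other genes named, 1786 of 1885 values stayed on their side, 78 lost and 21 gained a call, and 17 uncalled values changed sign. Scaling to equal library totals moved the median log2 fold change of all genes by 0.177 in p65 KO against control and by -0.268 in DKO against p65 KO, and Saa2 was then called in p65 KO (1.80, adjusted p = 0.0323). Saa2 was called there too without the low-count filter (1.61, adjusted p = 0.032) and by limma with a pseudocount of 1 (1.76, adjusted p = 0.0424) or 10 (1.72, adjusted p = 0.0447). The calls of Saa3 and Lcn2 in p65 KO and DKO against control and in the averaged p65 effect held under every alternative run. The called value that changed sign was Orm2 in p65 KO, which became -0.082 when Orm1, Orm2, and Orm3 were summed, because Orm1 makes up most of the sum. With near-identical genes summed, 2 of the 10 genes were called in DKO against control, in place of 4. Leaving out 1 library gave between 2 and 5 called genes in p65 KO against control, between 2 and 5 in DKO against control, between 0 and 2 in DKO against Nrf2 KO, and between 3 and 5 for the averaged p65 effect. With only the genotypes compared in the model, 0 genes were called in DKO against Nrf2 KO (Saa3 -2.50, adjusted p = 0.0732; Lcn2 2.89, adjusted p = 0.0739). Without the low-count filter or with DESeq2, Orm2 joined the calls of this comparison. The log2 difference of the ratio of Saa3 to Saa1 and Saa2 stayed between -4.49 and -4.11 when 1 library was left out and was -3.71 against the geometric mean of the other 9 genes. Same-numbered libraries did not deviate together (correlations between -0.23 and 0.11 over 13 pairs). Of 10 libraries, 2 were most like one with their own number. Deviations were taken from the genotype mean, so the 2 libraries of Nrf2 KO mirror each other, as do those of p65 KO. The correlations are therefore not independent, and the check cannot exclude that the numbers pair animals. With the replicate number as a block, 3, 3, and 0 genes were called in p65 KO against control, DKO against control, and DKO against Nrf2 KO, and 5 for the averaged p65 effect. In DKO against Nrf2 KO the blocked values were -2.40 for Saa3 (adjusted p = 0.0665) and 2.97 for Lcn2 (adjusted p = 0.0642), and Saa2 in DKO had 1.96 (adjusted p = 0.0598). With 2 or 3 animals per genotype, a change whose confidence interval includes 0 cannot be told from 0. The intervals are not adjusted for the number of genes tested, and some that exclude 0 belong to uncalled genes, such as Saa1 in p65 KO. Saa3, at 13 to 31 estimated counts in p65-deficient libraries, rests on few reads there.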
